A study of Arabidopsis thaliana with 4 samples.

Results

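The genes described here move sugars across membranes, make sucrose, build and break down starch, or belong to the kinase complex that senses sugar supply. They were followed through 1 week of growth of the Arabidopsis thaliana line MM2d, which grows as cells in liquid suspension. They were chosen by name: a probe set was taken where the platform's annotation gives it to 1 gene alone with the symbol SWEET10, SFP1, ATSPS4F, APL3, SBE2.2, PWD or AKINBETA1. These 7 symbols gave 8 probe sets of 8 genes, out of 13287 genes with a locus code and a probe set of their own. The symbol PWD stands for 2 genes in the annotation, AT5G26570 and AT4G24450, and these are kept apart by locus code.

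The groups were cells taken 1, 3, 5 and 7 days after subculture, with 1 Affymetrix ATH1 array each. Every group came from the same kind of culture: 5 ml of an early stationary suspension, 7 days after its own last transfer, was put into 100 ml of new medium with 3% sucrose, 0.5 mg/l NAA (an auxin) and 0.05 mg/l kinetin (a cytokinin). Flasks turned at 130 rpm and 27 °C in continuous darkness. The question put to the members is how their transcripts stood at each age of a culture that was given sucrose at transfer.

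Plant cells take up sucrose, or the hexoses made from it, through carriers in the plasma membrane, and keep what they do not burn as sucrose in the vacuole or as starch in plastids. SWEET proteins let sugars pass down their gradient in either direction, while carriers of the ERD6-like group, to which SFP1 belongs, act on hexoses and lie in part at the vacuole. Starch is built from ADP-glucose by pyrophosphorylase, synthases and branching enzymes, and its breakdown starts when dikinases put phosphate on the granule. SnRK1, the plant relative of yeast SNF1 and animal AMPK, is active when sugar is scarce.

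With 1 array per day no difference could be tested, and each is one between single arrays. The unit is the MAS5 signal, a linear intensity that combines the probes of a probe set after each array was scaled to the same trimmed mean, so a signal shows abundance relative to all other transcripts. Signals under 25.26, the 40th percentile of all signals, were raised to that floor and read as a bound. Of the 22746 probe sets, 15292 exceeded the floor on at least 1 array and are called measured; all 8 members were among them. As a gauge of error, the 2 probe sets of a gene should give the same log2 ratio, and 96 genes had such a measured pair. From their disagreement the SD per probe set was 0.30 to 0.40 log2 units in the 3 comparisons without day 1 and 0.54 to 0.64 in the 3 with it. This SD holds the disagreement of probes on the same arrays and nothing of the spread between cultures, so a difference beyond it is not shown to exceed the spread between replicates. The share of probe sets above the floor was 57.0% on day 1 and 60.3% to 61.6% later. The 3′ to 5′ signal ratio, a sign of RNA integrity, was 1.45 for actin on day 1 against 1.05 to 1.18 on the other days. For ubiquitin too it was highest on day 1, at 1.59, but for GAPDH it was 0.979 on day 1 and highest on day 7, at 1.12. The second probe sets gave higher ratios, with day 1 the highest at 4.31 for actin, 3.88 for ubiquitin and 1.16 for GAPDH; their part in the results was not tested. In cells taken in bulk, a lower share of cells with a transcript and less of it per cell cannot be told apart. Of 8 marker genes of green cells only RCA, rubisco activase, had a probe set of its own, with signals of 152, 112, 150 and 93.6 on days 1, 3, 5 and 7; no marker of dividing cells had one, so the cell type was checked by RCA alone.

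**Figure D1:**
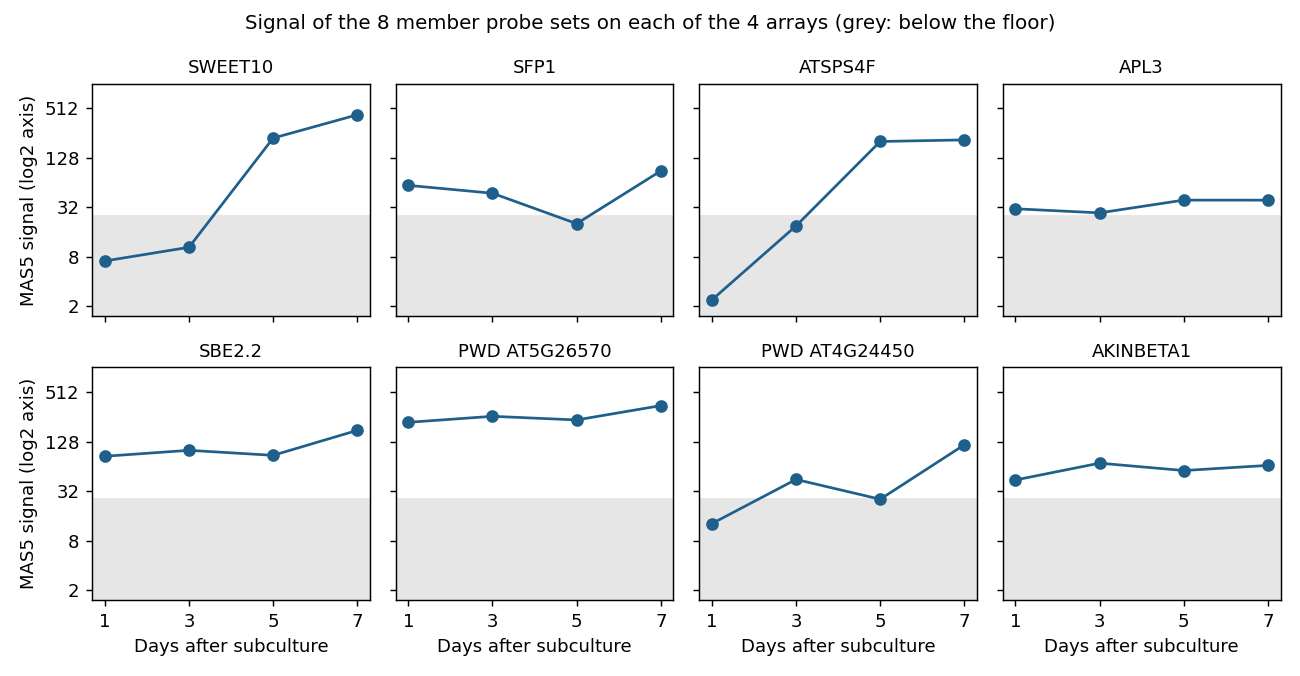
MAS5 signal (log2 axis) of the 8 member probe sets against days after subculture, 1 point per array, with the zone below the floor of 25.26 in grey. SWEET10 and ATSPS4F lie below the floor on days 1 and 3 and at 202 or more on days 5 and 7, while APL3 stays between 27.4 and 39.1.

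SWEET10, a sucrose carrier of the SWEET family, was below the floor in the young culture and well above it in the older one. Its signals on days 1, 3, 5 and 7 were 7.10, 10.4, 222 and 427. The late days thus stand far above the early ones, which have no order because both lie below the floor. The difference was at least 8.80-fold for day 5 against day 3 (log2 ratio at least 3.14, with a probe-set SD of 0.36) and at least 16.9-fold for day 7 against day 3 (4.08, SD 0.40). Day 7 against day 1 gave the same bound of 16.9-fold, since the floor stands in for both early days. Between the late days the difference was 1.92-fold (log2 ratio 0.94, SD 0.30), just short of the 2-fold limit, and the log2 ratio was past it with quantile normalization (1.01) and with arrays scaled to the hybridisation controls (1.32).

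SFP1, a sugar carrier known as a gene of leaf senescence, had another course, with its lowest signal on day 5. Its signal was 59.1, 47.4, 20.2 and 88.7 on days 1, 3, 5 and 7, so day 5 alone was below the floor and day 7 was the highest. In all 143 measured probe sets (0.935%) had this pattern around the floor, which was chosen after the values of SFP1 were seen. SFP1 was at least 3.51-fold higher on day 7 than on day 5 (log2 ratio at least 1.81, SD 0.30). It was at least 2.34-fold lower on day 5 than on day 1 (log2 ratio at most -1.23, SD 0.54), a call lost under a floor at the 50th percentile (log2 ratio -0.52). Day 5 against day 3 gave a bound of at least 1.88-fold lower, which passes the 2-fold limit with the floor at the 25th percentile. Day 7 was above day 1 by 0.58 log2 units, within the SD of 0.64.

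Both carriers were set beside the rest of their families. Of the 16 other SWEET genes, 15 had a probe set of their own and 8 were measured. The measured ones had a median log2 ratio of 0.20 for day 7 against day 1. Of these 8, 0 had a floored ratio of 2-fold or more in any comparison of 2 days, beside 31.3% of all measured probe sets. Where 1 of the days was below the floor that ratio is a bound, so a larger difference is not excluded for genes such as SWEET16, with 24.6, 18.6, 38.7 and 37.9 on the 4 days. SWEET11, a carrier that loads sucrose into the phloem, was above the floor throughout, with 44.9, 34.4, 25.7 and 38.6 (a range of 0.80 log2 units). SWEET13, the next gene along the chromosome from SWEET10, had 23.0, 29.7, 38.9 and 28.6. SAG29, also known as SWEET15 and a marker of leaf senescence, had 3.56, 3.78, 32.9 and 17.6, so it passed the floor on day 5 alone and its bound of at least 1.301-fold for day 5 against day 3 leaves the size of that difference unknown. Of the other genes listed here as ERD6-like, 11 had a probe set of their own and 7 were measured. This grouping is that of the list and was not checked by sequence. Some of the 7, such as AT1G05030 and AT1G67300, may thus not belong to the family of SFP1. Of these 7, 0 had a floored ratio of 2-fold or more in any comparison, beside the same 31.3% of all measured probe sets. Here too some ratios are bounds: AT4G04760, named after its values were seen, had 17.4, 26.5, 10.8 and 39.7, with days 1 and 5 below the floor. SFP2, the tandem neighbour of SFP1, was below the floor on days 1, 3 and 5 and at 25.3 on day 7.

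**Figure D2:**
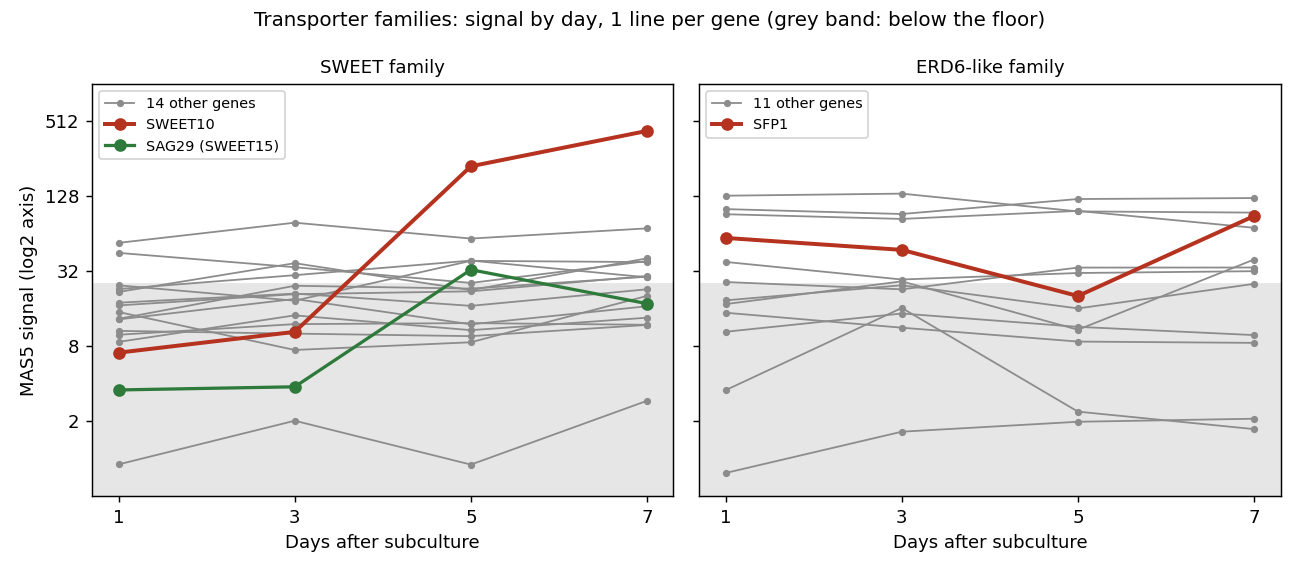
MAS5 signal (log2 axis) against days after subculture for SWEET genes (left) and genes listed as ERD6-like (right). Each line is 1 gene with a probe set of its own, with 1 array per day. SWEET10 (red) leaves the grey zone below the floor between days 3 and 5, SAG29 (green) is above it on day 5 alone, and SFP1 (red) dips into it on day 5.

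ATSPS4F encodes a sucrose-phosphate synthase, the enzyme that joins fructose 6-phosphate to glucose from UDP-glucose on the way to sucrose. Its signals over the 4 days were 2.38, 19.0, 202 and 212. As with SWEET10, both early days were below the floor and both late days far above it, but here the late days lay close together. Day 5 was at least 8.01-fold higher than day 3 (log2 ratio at least 3.00, SD 0.36), and day 7 at least 8.37-fold higher than day 3 (at least 3.07, SD 0.40). Day 7 against day 5 was 1.05-fold, a log2 ratio of 0.06 within the SD of 0.30. SWEET10 and ATSPS4F were 2 of 412 measured probe sets (2.69%) that were below the floor on days 1 and 3 and above it on days 5 and 7. They were also 2 of the 74 (0.484%) that reached at least 2 times the floor on both late days, a limit chosen after their values were seen.

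Of the 29 other genes of sucrose synthesis and cleavage in the first list, 4 had a probe set of their own and 3 were measured. cwINV6, named as a cell wall invertase though its enzyme is known to split fructans, had signals of 19.7, 15.4, 58.2 and 43.1 on the 4 days. It was at least 2.31-fold higher on day 5 than on day 3. The sucrose-phosphate phosphatases AT2G35840 and AT3G54270, which finish sucrose synthesis, had log2 ratios of 0.37 and 0.21 for the same days, the first just above the SD of 0.36 and the second within it.

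Starch synthesis was represented by a subunit that differed little between days and a branching enzyme that was highest on day 7. APL3, a large regulatory subunit of ADP-glucose pyrophosphorylase found mostly in non-green tissue and known to respond to sugar, had signals of 30.7, 27.4, 39.1 and 39.1 on days 1, 3, 5 and 7. All 4 were above the floor but near it, and the late days lay above the early ones by small amounts. Day 5 was 1.43-fold higher than day 3 (log2 ratio 0.52, SD 0.36), and day 7 was 1.27-fold higher than day 1 (0.35, within the SD of 0.64).

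SBE2.2, which puts the branches into amylopectin, had signals of 84.9, 100, 87.1 and 175. The first 3 days lay within 0.24 log2 units of each other and day 7 stood above them. Day 7 was 2.01-fold higher than day 5 (log2 ratio 1.01, SD 0.30), 1.75-fold higher than day 3 (0.81, SD 0.40) and 2.07-fold higher than day 1 (1.05, SD 0.64). The value against day 5 sits at the 2-fold limit and was 0.98 when the arrays shared 1 median. The value against day 1 was under the limit with a common median (0.76), a common 75th percentile (0.92) and quantile normalization (0.90). Of the 23 genes for starch synthesis in the first list, 4 had a probe set of their own, APL3 and SBE2.2 among them. Besides these members only AT5G39790 was measured, a protein that carries granule-bound starch synthase to the granule. Its signals were 22.3, 32.6, 30.9 and 26.8.

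The genes with the symbol PWD were also highest on day 7, by unlike amounts. AT5G26570 is the phosphoglucan, water dikinase of plastids, which adds phosphate to starch that another dikinase has already marked. Its signals were 220, 260, 235 and 351 on days 1, 3, 5 and 7. Day 7 was 1.49-fold higher than day 5 (log2 ratio 0.58, SD 0.30) and 1.60-fold higher than day 1 (0.68, SD 0.64), and the first 3 days lay within 0.24 log2 units.

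AT4G24450 carries the synonym ATGWD2 in the RefSeq table, and its product is a dikinase known to lie outside the plastid. Its signals were 12.8, 44.3, 25.4 and 117, below the floor on day 1, at the floor on day 5 and far above it on day 7. Day 7 was 4.60-fold higher than day 5 (with an SD of 0.30 log2 units), though the day 5 signal is so near the floor that a floor at the 50th percentile gives a log2 ratio of 1.51. It was 2.64-fold higher than day 3 (log2 ratio 1.40, SD 0.40). Against day 1 the bound was at least 4.63-fold (2.21, SD 0.64). Day 3 was at least 1.75-fold higher than day 1. Of the 25 genes listed for starch breakdown, 4 had a probe set of their own. DPE1, a plastid enzyme that rearranges the glucans left by starch breakdown, was the other measured gene of that list, with 77.7, 92.9, 98.7 and 71.6.

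AKINBETA1, a beta subunit that ties the SnRK1 kinase to its partners, had signals of 43.6, 69.9, 56.9 and 65.7 on days 1, 3, 5 and 7. Day 1 was the lowest and the other days lay within 0.30 log2 units of each other. Day 3 was 1.60-fold higher than day 1 (log2 ratio 0.68, SD 0.57) and day 7 was 1.51-fold higher than day 1 (0.59, SD 0.64). The other beta-type subunits were highest on day 1: AT2G28060, known as AKINBETA3, had 141, 81.9, 85.9 and 83.4, and AT4G16360, known as AKINBETA2, had 96.8, 77.8, 88.5 and 85.8. For day 3 against day 1 their log2 ratios were -0.79 and -0.31, against 0.68 for AKINBETA1, with an SD of 0.57. No kinase or gamma subunit of the complex had a probe set of its own in the annotation used here.

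**Figure D3:**
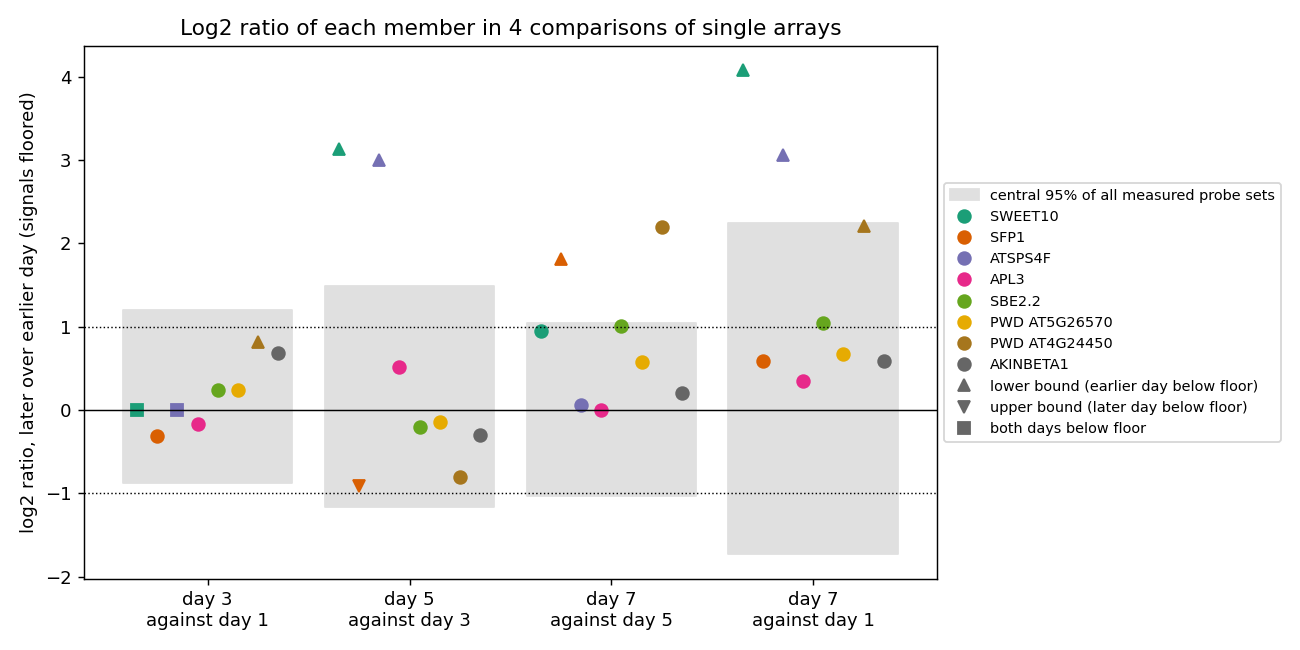
Log2 ratio of floored signals, later over earlier day, for the 8 members (colours) in 4 comparisons of single arrays, with bounds as triangles, the 2-fold limits dotted and the central 95% of all measured probe sets in grey. SWEET10 and ATSPS4F lie above the grey range in day 5 against day 3 and day 7 against day 1, and SFP1 and AT4G24450 in day 7 against day 5.

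Day 3 against day 1 showed no member past the limit. Of the 8 members 0 were at least 2-fold higher, against 4.02% of all measured probe sets, and 0 were at least 2-fold lower, against 1.65%. SWEET10 and ATSPS4F had both days below the floor, so their log2 ratios were 0 by construction, and AT4G24450 had only a bound. The median log2 ratio of the members was 0.12, beside 0.01 for all measured probe sets.

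Day 5 against day 3 set SWEET10 and ATSPS4F apart from the other members. They were the 2 members at least 2-fold higher, where 6.24% of all measured probe sets were, and 0 members were at least 2-fold lower, where 3.81% were. Besides these 2 only APL3 lay above 0, at 0.52. The other 5 members lay below 0, as did 48.4% of all measured probe sets, so the median was -0.18 although SWEET10 and ATSPS4F were at or above 3.00. SFP1 and AT4G24450 were the lowest of the group, at most -0.91 and at -0.80.

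In day 7 against day 5 most members lay above 0. AT4G24450, SFP1 and SBE2.2 were the 3 members at least 2-fold higher, beside 2.94% of all measured probe sets, and 0 were at least 2-fold lower, beside 2.71%. SBE2.2 (log2 ratio 1.01) and SWEET10 (0.94) lay close to the limit on either side of it. Of the 8 members 7 lay above 0, as did 48.4% of all measured probe sets, the exception being APL3 at 0.00, and the median was 0.76 beside 0.00 for all measured probe sets.

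Day 7 against day 1 spans the whole course. All 8 members lay above 0, as did 53.7% of all measured probe sets, and 4 were at least 2-fold higher (SWEET10, ATSPS4F, AT4G24450 and SBE2.2), where 13.1% of all were; 0 were at least 2-fold lower, where 10.5% were. The median log2 ratio was 0.86, beside 0.06 for all measured probe sets. Day 7 was the highest day for 6 of the 8 members and for 32.8% of all measured probe sets. Against day 3, which leaves the day 1 array out, 3 members were at least 2-fold higher (7.95% of all) and 0 lower (6.89%), with a median of 0.85. For day 5 against day 1 the counts were 2 higher (8.53% of all) and 1 lower (4.59%), the last being SFP1. The comparisons share arrays and are no independent counts, and the members were chosen with earlier results of these arrays known, so their shares are a description.

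Other genes of the pathway are given beside the members, whose own choice rested on earlier results. The 7 lists held 159 genes of sugar transport, sucrose, starch, SnRK1, trehalose 6-phosphate and sugar starvation. Of these, 42 had a probe set of their own and 31 were measured, 23 of them no members. Listed genes without a probe set of their own could not be read. Of these 23, 1, cwINV6, had a floored ratio of at least 2-fold higher for day 5 against day 3, and 0 reached 2-fold either way in the other comparisons of consecutive days or for day 7 against day 1. Their median log2 ratio was 0.00 for day 3 against day 1 and likewise for day 5 against day 3. It was -0.04 for day 7 against day 5, and 0.18 for day 7 against day 1. Of all measured probe sets, 6.24% were at least 2-fold higher for day 5 against day 3 and 3.81% lower. The shares higher and lower were 4.02% and 1.65% for day 3 against day 1, and 2.94% and 2.71% for day 7 against day 5. For day 7 against day 1 they were 13.1% and 10.5%.

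Among carriers outside the families above, TMT1, which loads hexoses into the vacuole, had signals of 47.9, 46.7, 40.2 and 76.5 on days 1, 3, 5 and 7. It was 1.91-fold higher on day 7 than on day 5, with a log2 ratio of 0.93. The hexose carrier AT5G61520, known as STP3, had 46.8, 36.7, 40.7 and 22.0, so it was below the floor on day 7 alone. SWEET8, from the SWEET family above and a carrier of pollen development, had 21.8, 37.1, 22.6 and 40.6, with days 1 and 5 below the floor. BZIP53, a transcription factor of the sugar starvation list, had 133, 143, 243 and 154, with a log2 ratio of 0.77 for day 5 against day 3; it was the only measured gene of that list, and 0 genes of the trehalose 6-phosphate list had a probe set of their own.

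**Figure D4:**
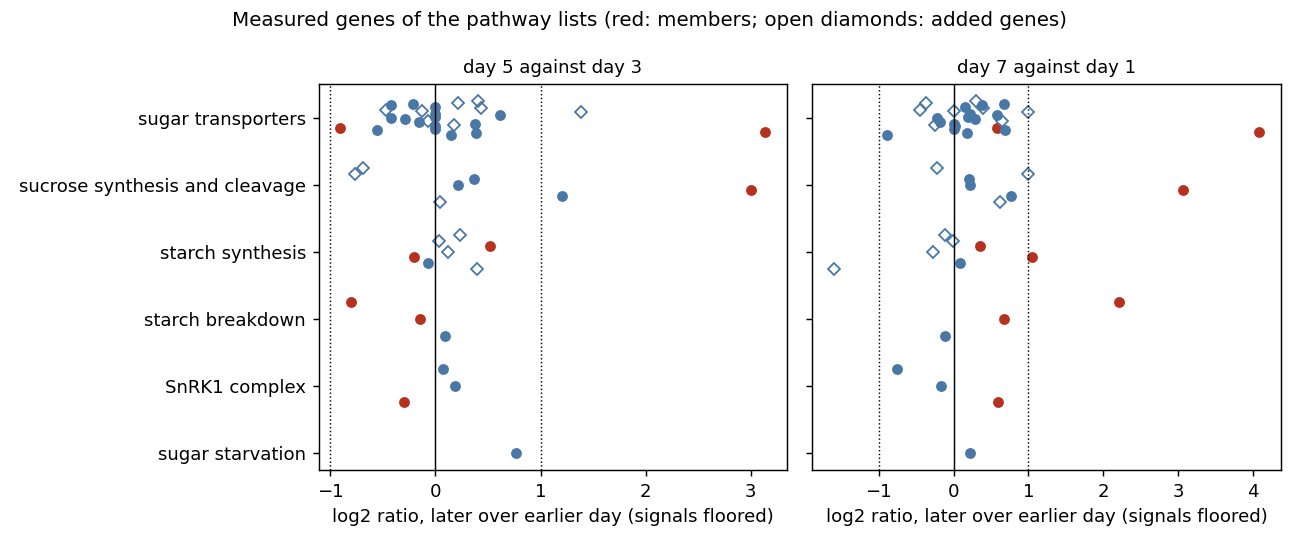
Log2 ratio of floored signals for the measured genes of each pathway list, day 5 against day 3 (left) and day 7 against day 1 (right), with members in red, other listed genes in blue and later additions as open diamonds; dotted lines mark 2-fold. SWEET10 and ATSPS4F stand at or beyond 3.00 in both panels, and most other genes lie between the dotted lines.

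The genes whose course was most like that of a member were sought among 362 probe sets that are no members. Each belonged to 1 gene with a symbol other than a locus code, had no cross-hybridisation mark and had at least a 2-fold range. In all 4779 measured probe sets had such a range, so what is nearest holds only within the 362. The measure was the root mean square (RMS) difference of the 4 log2 signals after floor and centring. Days 1 and 3 of SWEET10, OCT4, ATSPS4F and HIS1-3 lie below the floor, so their floored signals are equal by construction. With 4 arrays such likeness is a description. Nearest to SWEET10 was OCT4, an organic cation carrier, at an RMS difference of 0.27, with signals of 19.1, 20.7, 139 and 369 on the 4 days. BGLU46, a beta-glucosidase, and FMO followed at 0.36 and 0.55. Nearest to ATSPS4F was HIS1-3, a linker histone, at 0.22, with 17.0, 12.8, 218 and 154, followed by FMO (0.32) and EXLA2 (0.35), an expansin-like protein.

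SBE2.2 had the closest match of all, ARD4, at an RMS difference of 0.06, with signals of 147, 194, 158 and 313. IRX15-L (0.09) and PAHX (0.10) came next, IRX15-L with days 1 and 5 below the floor, at 13.3 and 24.5. The RMS difference is not scaled by range, and SBE2.2 had the smallest range of the members compared, 1.05 log2 units. For AT4G24450 the nearest were WRKY22, a transcription factor, at 0.18, with 34.3, 58.7, 46.1 and 170, then XTH18, a xyloglucan transglycosylase, at 0.20, and PRN at 0.22. SFP1 had no match as close as these: nad1, a mitochondrial gene, was at 0.31, and the myosin VIIIB and GH9C2, a wall glucanase, were both at 0.32. Within the probe sets searched, the nearest genes were thus shared only between SWEET10 and ATSPS4F, through FMO.

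**Figure D5:**
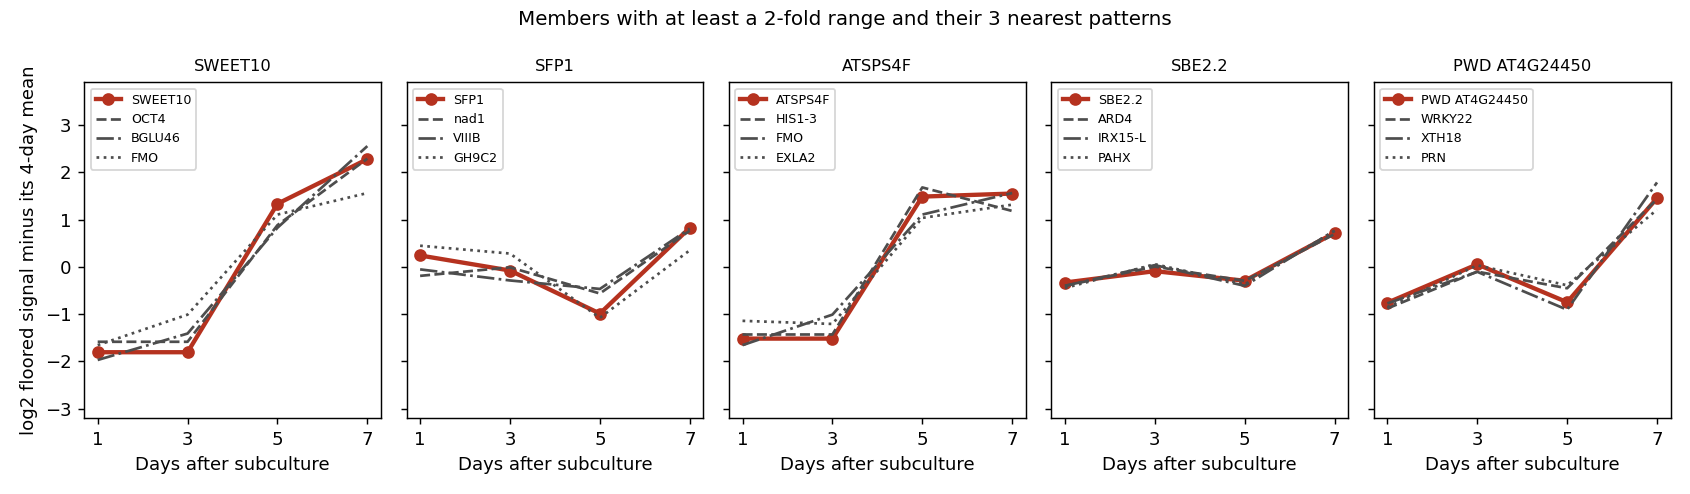
Log2 floored signal minus its mean over the 4 days, against days after subculture, for the 5 members with at least a 2-fold range (red) and their 3 nearest genes (dark lines). The lines for SBE2.2 run within 0.10 RMS of it, while those for SFP1 differ by 0.31 to 0.32.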

How the data were processed

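The authors deposited signal intensities, made with MAS5 according to the submitters' processing notes, which name no version. The table holds 22810 probe sets on 4 arrays, without detection calls; 64 control probe sets were left out. After trimming 2% from either end, each array's mean was 100.0, so arrays were compared as deposited. Signals were floored at the 40th percentile of all signals (25.26), and log2 ratios of days were computed with Python 3.11.15, numpy 2.4.6 and pandas 2.3.3; counting steps were tested on simulated data. The number of arrays limits the precision, since no day has a replicate. Probe sets were named from the platform annotation and RefSeq's gene table of TAIR10.1 (13436 of 13513 with 1 gene matched). Probe sets of several genes (503) or none (8730) were not named, and no sequences were used here. Coordinates in RefSeq's gene table gave only the gene order, from which the neighbours of SWEET10 and SFP1 were named.

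The members and lists were chosen with earlier results of these data known. A first set of 159 pathway genes was written down by locus code, and 59 further family members were added after the first set's values were seen; only the ERD6-like family above includes added genes. Each listed gene had at most 1 probe set of its own. From each list all measured genes are named where there are at most 8, otherwise the 6 with the widest range. Other SWEET and ERD6-like genes are named beside SWEET10 and SFP1, and the 3 nearest patterns for each member with at least a 2-fold range.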

Additional observations from a re-analysis of the deposited data

How the results depend on the processing

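No paired analysis was possible because each day has 1 array. Floors at the 25th and 50th percentile, no floor, 4 other scalings and limits of 1.5-fold and 3-fold were tried. For the other pathway genes, leaving out probe sets marked as cross-hybridising was also set up. No probe set of a listed gene carries that mark, so this setting could change nothing and is no check. Of 336 member log2 ratios under another floor or scaling, 282 moved by less than the probe-set SD and 54 by more, and no ratio past 2-fold changed sign. Member counts kept within 1.5 times in 98 of 108 cases. For day 3 against day 1, 0 members higher became 1 with the floor at the 25th percentile, 2 with no floor and 2 with a 1.5-fold limit. For day 5 against day 3, 0 lower became 1, 1 and 2 with the same settings. For day 5 against day 1, 1 lower became 0 with the floor at the 50th percentile or a 3-fold limit. For day 7 against day 3, 3 higher became 5 with the hybridisation controls or a 1.5-fold limit. Scaling to these controls moved the median log2 ratio of all measured probe sets to 0.33 for day 7 against day 5, 0.32 for day 7 against day 1 and 0.36 for day 7 against day 3, and a common median moved it to -0.12 for day 7 against day 1.

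For the 23 other pathway genes, the floor at the 25th percentile or none gave a median of 0.25 for day 3 against day 1, 3 higher for day 5 against day 3 and 1 lower for day 7 against day 1, with 2 and 3 higher there. The floor at the 50th percentile gave 0 higher for day 5 against day 3. The median for day 7 against day 1 became 0.00 with that floor, with a common median or with quantile normalization, and 0.44 with the hybridisation controls. A common median and quantile normalization gave 2 and 1 lower for day 7 against day 1. The hybridisation controls gave 1 higher for day 7 against day 5 and for day 7 against day 1, and a median of 0.28 for day 7 against day 5. With the added genes, day 3 against day 1 had 1 higher and 1 lower, day 5 against day 3 had 2 higher and day 7 against day 1 had 1 lower. Causes were not tested beyond what each setting does by construction. Signals near the floor, such as those of APL3, limit what can be read from small ratios.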

Other observations

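Among the 15 measured genes added to the lists later, 3 had at least a 2-fold floored range, beside 31.3% of all measured probe sets. These 3 are named here after their values were seen. AT2G31390, a fructokinase, which commits free fructose to metabolism, had signals of 232, 798, 469 and 463 on days 1, 3, 5 and 7, so day 3 stood highest. It was 3.43-fold higher on day 3 than on day 1 (log2 ratio 1.78, SD 0.57) and had a log2 ratio of -0.77 for day 5 against day 3. The fructokinase AT5G51830 had 152, 213, 220 and 234, and AT1G66430, a fructokinase of plastids, had 29.6, 40.8, 11.02 and 7.83, below the floor on both late days. The floored range of AT1G66430 is thus a bound, and it was not counted among the 3.

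AT5G65685, a protein related to starch synthases, had 458, 177, 232 and 151, with its highest signal on day 1, and was 3.03-fold lower on day 7 than on day 1 (log2 ratio -1.60, SD 0.64). AT2G20780, a carrier of the polyol transporter group, had 194, 156, 408 and 385. It was 2.61-fold higher on day 5 than on day 3 (log2 ratio 1.38, SD 0.36), the same step at which SWEET10 and ATSPS4F passed the floor. All of these are differences between single arrays.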
